A study of Mus musculus with 41 samples.

Results

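Whether the difference between Niemann-Pick type C (NPC) and wild-type (WT) microglia grew or shrank from 1 to 3 weeks of age was measured gene by gene. The quantity reported is an interaction, the log2 difference of NPC minus WT at 3 weeks less the same difference at 1 week, which is also the change with age in NPC less the change with age in WT. Its members are the 16 libraries of 4 groups, out of 41 libraries in the series, with 4 libraries in each group: NPC at 3 weeks, WT at 3 weeks, NPC at 1 week and WT at 1 week. NPC mice carried the m1N allele of Npc1 (strain label BALB/cNctr-Npc1m1N/J), WT mice had the strain label balb/c, and all were untreated. Zygosity, sex and litter are not given in the sources used here. Each library was made from a pool of microglia sorted as CD11b+ Tmem119+ cells from perfused cerebella after myelin removal on Percoll, so the data describe cells that kept Tmem119 on their surface. The series design counts mice per group, and the p-values measure the spread between these libraries.

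Microglia are the resident macrophages of the brain. In the first weeks after birth they divide, clear dying cells and surplus synapses, and then pass into a quiescent adult state in which proliferation, interferon-response and phagocytic genes are low and sensing genes such as Tmem119, P2ry12 and Cx3cr1 are high. Npc1 moves cholesterol out of late endosomes and lysosomes. Its loss causes a lysosomal storage disease in which cerebellar Purkinje cells die, and microglia in this tissue react early.

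Npc1, the gene of the m1N allele, was low in every NPC library. Npc1 had 659, 549.7, 378 and 622 normalized counts in NPC libraries A to D and 6959, 7030.4, 6897 and 5735 in WT libraries at 3 weeks. At 1 week Npc1 had 491, 523, 489.9 and 311 in NPC and 2606, 3237, 3488 and 3840.4 in WT libraries. The groups did not overlap at either age, and the interaction of Npc1 itself was -0.74 on the log2 scale with an adjusted p of 0.311. The 9 microglia markers reported (Tmem119, Itgam, Csf1r, P2ry12, Cx3cr1, Fcrls, Siglech, Sall1 and C1qa) averaged at least 15018 normalized counts in each group, and none was called for the interaction. Libraries held 23.2 M to 40.5 M recovered reads (median 29.1 M; M, 1e+06 reads), and 12003 to 14485 genes had at least 3 reads. NPC library C at 3 weeks stood apart from the other 15. It had the fewest detected genes (12003, against 12984 or more), its score on the second principal component was 162 against -54.4 to 26.9, and cytosolic ribosomal protein genes took 0.564% of its counts, against 0.211% to 0.244% in the other NPC libraries at 3 weeks. Results are therefore given with all 16 libraries and without this library.

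Across 13428 genes tested, the NPC minus WT difference was called as moving upward between the ages for 73 genes (0.544%) and downward for 8 genes (0.0596%), by limma's moderated test with Benjamini-Hochberg adjusted p under 0.05. Unadjusted p was under 0.05 for 1756 genes, where 671.4 would be the number for uniform p-values. Without NPC library C at 3 weeks, 149 of 13378 genes (1.11%) were called higher and 37 (0.277%) lower, and all 81 genes of the first count were among them. A block on the library letter at 1 week, where same-lettered NPC and WT libraries deviated together, left 44 called genes, 42 of them among the 81. The count was also sensitive to single libraries, ranging from 19 genes without WT library C at 1 week to 186 without NPC library C at 3 weeks. A set of 17 genes was called in all 16 fits that each left out 1 library, and 4 more were called in 15 of 16, having lost the call only without WT library C at 1 week. Of these 21 genes 20 were called higher and 1 lower, and many of the genes described below are not among them.

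Most of the called genes were ones that WT microglia turned down between 1 and 3 weeks. Of the 73 genes called higher, 51 fell with age in WT. In 24 of these the NPC mean change was also downward but smaller (a blunted fall) and in 27 it was upward (a reversed fall), and the remaining 22 had no called change in WT. Their median change with age was 0.65 in NPC and -1.15 in WT on the log2 scale, and their median NPC minus WT difference was 2.15 at 3 weeks and 0.26 at 1 week. NPC and WT libraries did not overlap for 72 of the 73 genes at 3 weeks, but overlapped for 49 of them at 1 week. Over all 13428 genes tested, the genotypes did not overlap for 24% at 3 weeks and for 8.97% at 1 week, in either direction. Because the same libraries enter the age changes, the overlaps and the interaction that chose these genes, all these counts are a description. Over all 13428 genes, NPC at 3 weeks against NPC at 1 week had 1318 higher (9.82%) and 1359 lower (10.1%), and WT at 3 weeks against WT at 1 week had 1759 higher (13.1%) and 2232 lower (16.6%). NPC against WT had 1361 higher (10.1%) and 1058 lower (7.88%) at 3 weeks, and 41 higher (0.305%) and 30 lower (0.223%) at 1 week.

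**Figure D1:**
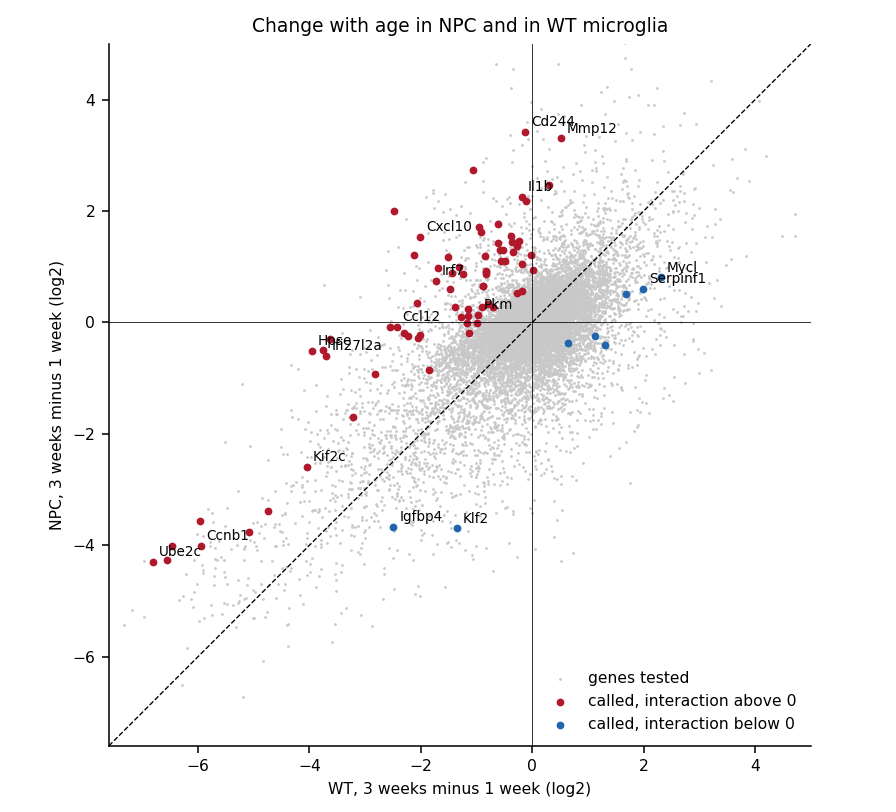
Change from 1 to 3 weeks in NPC microglia (vertical axis, log2) against the change in WT microglia (horizontal axis, log2) for the 13428 genes tested, with 73 genes called above 0 in red, 8 called below 0 in blue and the line of equal change dashed. Red genes lie above the line, most of them left of 0, where WT fell, and the cell division genes Ube2c, Ccnb1 and Kif2c fell in both genotypes but less in NPC.

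By age, 76 of the 81 genes had a called NPC minus WT difference at 3 weeks and none called at 1 week. Serpinf1, Igfbp4, Gm13710 and Ctsb differed at both ages, and more at 3 weeks. Zfp78, a zinc finger protein gene, ran the other way: it had 114, 124, 152 and 132 normalized counts in NPC and 109.6, 129.6, 90.5 and 95 in WT libraries at 3 weeks. Counts at 1 week were 18.9, 12.9, 39.6 and 27.4 in NPC and 100.1, 62.9, 98.8 and 83.8 in WT libraries. It was lower in every NPC library at 1 week and overlapped WT at 3 weeks, with an interaction of 2.16 ± 0.47 (log2, SE; adjusted p = 0.0456). That call was lost without 13 of the 16 libraries taken singly.

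Interferon-response genes made up more of the called genes than any other of the 30 lists, which differ in size. Type I interferon acts through its receptor and factors that include Irf9 and Irf7 to switch on a shared set of antiviral genes. Of 42 tested members of this list, 31 were called higher and 1 lower in NPC than in WT at 3 weeks. The shares over all genes tested were 10.1% and 7.88%. At 1 week 0 were called. For the interaction 16 were called higher and 0 lower, 36 had an interaction above 0, and the median was 1.64 on the log2 scale. Over all genes tested, 0.544% were called higher and 0.0596% lower for the interaction, and the median was -0.03. These shares apply to every list below. Without NPC library C at 3 weeks 18 members were called higher (1.11% of all genes tested) and the list median was 1.70. Of the 16 called members 12 fell with age in WT (16.6% of all genes tested) and 12 rose with age in NPC (9.82%). All 16 separated NPC from WT libraries at 3 weeks (24% of all genes tested). At 1 week 12 of the 16 overlapped and none was called, where 8.97% of all genes tested were without overlap. These 16 were chosen from the same libraries, so their separation is a description. In these sorted pools, more cells carrying a transcript and more transcript per cell cannot be told apart. Single libraries moved the count between 6 (without NPC library B or C at 1 week) and 18 (without NPC library A at 1 week or C at 3 weeks), and the block at 1 week left 11.

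Irf7, the factor that amplifies the interferon response, had 1179.6, 1346, 1280.5 and 1271 normalized counts in NPC and 209, 173, 279 and 229 in WT libraries at 3 weeks. At 1 week it had 1459, 691, 495 and 655 in NPC and 655, 779, 735 and 750.3 in WT libraries. All NPC libraries were above all WT libraries at 3 weeks, while at 1 week the genotypes overlapped and NPC library A was the high one. The interaction was 2.47 ± 0.35 (log2, SE), a ratio of 5.55 (95% confidence interval 3.32 to 9.27; adjusted p = 0.00611). Cxcl10, a chemokine induced by interferon that attracts T cells, had 632, 366, 372 and 429.5 in NPC and 38.3, 34.1, 82.2 and 46 in WT libraries at 3 weeks. The libraries of 1 week had 297, 143, 114 and 107 in NPC and 145, 193, 158 and 312 in WT. Cxcl10 rose with age in NPC (log2 change 1.53) and fell in WT (-2.01). Its interaction was 3.54 ± 0.52 (adjusted p = 0.00611).

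Ifitm3, a membrane protein that blocks virus entry, had 734, 1241, 2034 and 1116 normalized counts in NPC and 118, 182, 189 and 177 in WT libraries at 3 weeks. At 1 week Ifitm3 had 1163, 522, 434 and 512 in NPC and 492, 612, 424 and 609.9 in WT libraries. Rtp4, an interferon-induced receptor chaperone, had 1533, 1917, 4178 and 2171 in NPC and 231, 249, 401 and 405 in WT libraries at 3 weeks. At 1 week Rtp4 had 1428, 1059.5, 883 and 1277 in NPC and 775, 732, 689.5 and 908 in WT libraries. Lgals3bp, a secreted galectin-binding glycoprotein, had 16518, 24046, 23661 and 21417 in NPC and 4225, 4934, 5314 and 6388 in WT libraries at 3 weeks. In the 1-week libraries the counts were 12172, 9055, 8633 and 10105 in NPC and 7039, 7904, 6916 and 7159 in WT libraries. For Lgals3bp the genotypes were already apart at 1 week, without a call (0.272, adjusted p), and moved further apart by 3 weeks. The interactions were 2.67 ± 0.44 for Ifitm3, 2.30 ± 0.38 for Rtp4 and 1.59 ± 0.21 for Lgals3bp (log2, SE; adjusted p = 0.0128, 0.0128 and 0.00493). Oas1a, an oligoadenylate synthetase that activates RNA decay, had an interaction of 2.41 ± 0.38 (adjusted p = 0.0098). It has close copies in the mouse genome, so its reads may be shared, and the call was lost when all 31 untreated libraries of the time course entered the fit (adjusted p = 0.0689). Ifi27l2a, an interferon-inducible gene, had an NPC change of -0.60 that was not called and fell in WT (-3.70, log2), giving an interaction of 3.11 ± 0.55 (adjusted p = 0.0185). Leaving out WT library D, NPC library B or NPC library C at 1 week each ended that call, with an adjusted p of at most 0.0588. The other called members were Oasl1, Oasl2, Ifit1, Ifit2, Ifit3, Slfn2, Usp18, Ifi44 and Bst2, of which the Ifit and Oasl genes also have close copies.

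The promoters of 3 of these genes are shown because they hold the core letters of the element that interferon-activated factors bind. The motif searched was GAAANNGAA on both strands (reverse complement TTCNNTTTC), in 250 bases before to 50 after the RefSeq start on GRCm38.p6, a build other than the one the authors used. It is in capitals where found.
Cxcl10 promoter, chr5:92348840-92349139, minus strand: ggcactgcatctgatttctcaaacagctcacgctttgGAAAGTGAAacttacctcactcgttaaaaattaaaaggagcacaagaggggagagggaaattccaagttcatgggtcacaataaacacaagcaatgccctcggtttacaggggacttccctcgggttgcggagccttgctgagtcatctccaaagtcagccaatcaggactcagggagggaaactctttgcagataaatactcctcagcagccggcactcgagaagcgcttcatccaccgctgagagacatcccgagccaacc
Oas1a promoter, chr5:120907476-120907775, minus strand: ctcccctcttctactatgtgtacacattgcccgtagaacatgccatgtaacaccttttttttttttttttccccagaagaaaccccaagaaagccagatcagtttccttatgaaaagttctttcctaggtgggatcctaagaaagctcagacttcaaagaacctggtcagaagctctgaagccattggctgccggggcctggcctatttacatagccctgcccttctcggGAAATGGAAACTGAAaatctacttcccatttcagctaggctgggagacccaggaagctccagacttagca
Ifitm3 promoter, chr7:141010695-141010994, minus strand: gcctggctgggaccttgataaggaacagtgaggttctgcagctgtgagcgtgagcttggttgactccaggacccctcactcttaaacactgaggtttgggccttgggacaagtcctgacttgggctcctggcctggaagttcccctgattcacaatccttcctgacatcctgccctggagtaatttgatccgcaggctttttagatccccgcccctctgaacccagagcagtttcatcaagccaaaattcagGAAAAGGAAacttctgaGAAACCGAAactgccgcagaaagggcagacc
The letters were found in 20 of 31 tested interferon members with a promoter in the table (64.5%), in 7 of the 13 called members (53.8%) and in 13 of the 18 others (72.2%). Among 27025 genes with a promoter, 2638 (9.76%) held them. The windows of Irf7 and Lgals3bp did not hold these letters. In Oas1a the matches overlap each other. A match in these letters is a description of the sequence and was not measured as binding here.

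**Figure D2:**
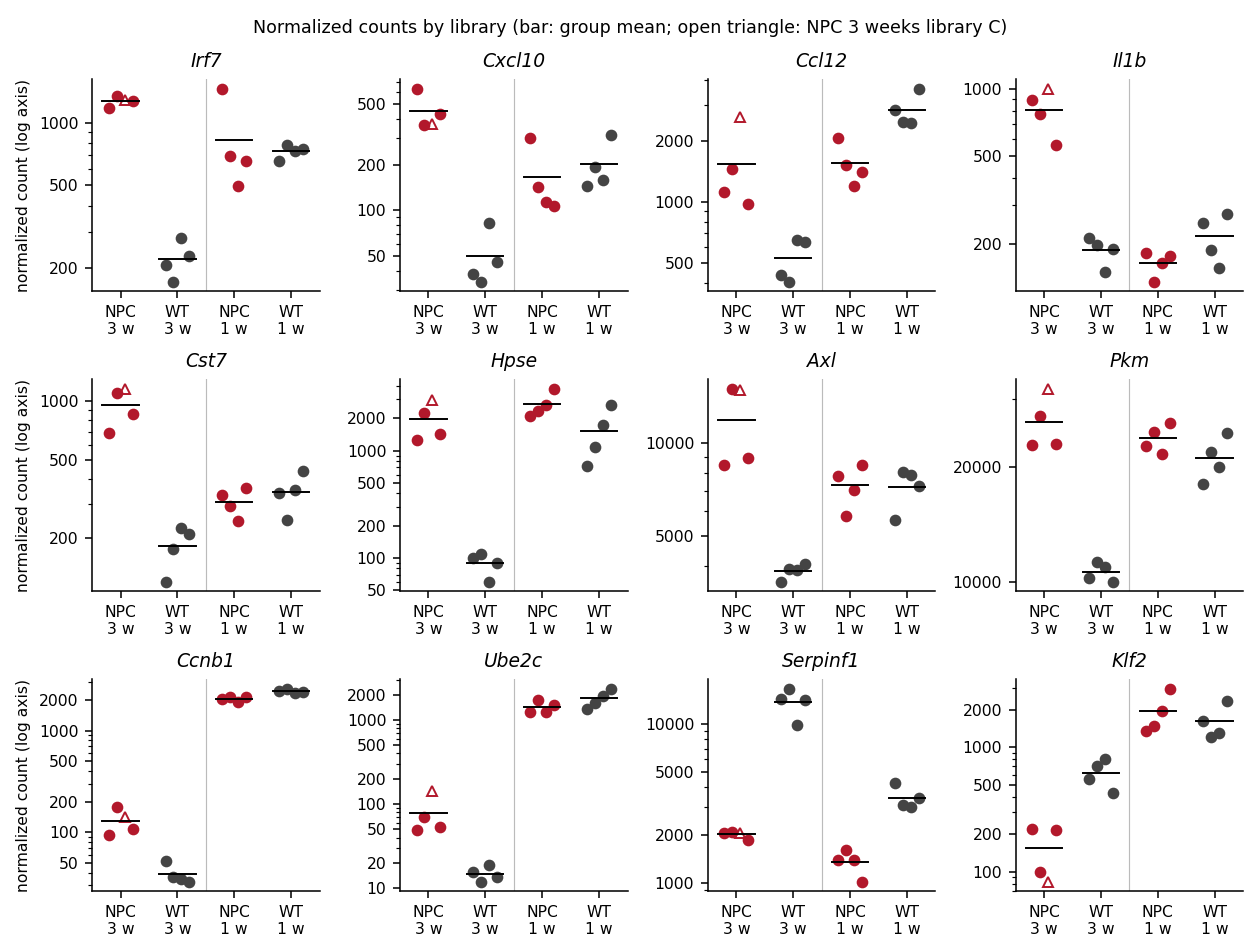
Normalized counts (log axis) of 12 genes in each of the 16 libraries, NPC in red left of WT in grey, 3 weeks left of 1 week, with a bar at the group mean and NPC library C at 3 weeks as an open triangle. Irf7, Cxcl10, Cst7, Axl and Pkm overlap between genotypes at 1 week and separate at 3 weeks, Serpinf1 separates at both ages, and Klf2 is lower in NPC at 3 weeks.

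Chemokines, the secreted proteins that steer leukocytes, were the next list with several calls. Of 22 tested chemokine ligands and receptors, 10 were called higher and 6 lower in NPC than in WT at 3 weeks. The shares over all genes tested were 10.1% and 7.88%. At 1 week 0 were called higher and 2 lower. Summed over the list, normalized counts at 3 weeks ran from 105578 to 153367 in NPC and 156276 to 192856 in WT libraries. The 6 genes called for the interaction were a small part of this sum. Ccl12, the highest of them, averaged 1543 in NPC and 532 in WT at 3 weeks. For the interaction 6 were called higher (Cxcl10, Ccl12, Ccl5, Ccl7, Ccl2 and Ccl3) and 0 lower, 15 were above 0 and the median was 0.89. Ccl12, a ligand of Ccr2 that draws monocytes in the mouse, had 1123, 1458, 2618 and 973 normalized counts in NPC and 438, 405, 650.0 and 634 in WT libraries at 3 weeks. At the earlier age the counts were 2057, 1519.6, 1204 and 1407 in NPC and 2831, 2481, 2449 and 3618 in WT. The order of the genotypes turned round: NPC libraries lay below all WT libraries at 1 week, without a call (adjusted p = 0.204), and above all of them at 3 weeks. The NPC change was -0.09 (log2, not called), whereas WT fell (-2.43), for an interaction of 2.35 ± 0.38 (adjusted p = 0.0117). Ccl5, which attracts T cells, had 117, 165, 264 and 127 in NPC and 9.3, 16.2, 19.8 and 25.9 in WT libraries at 3 weeks. At 1 week Ccl5 had 67.3, 18.2, 18.8 and 12.1 in NPC and 37.1, 47.5, 42.6 and 22.4 in WT libraries, so the interaction of 3.79 ± 0.71 rests on low counts. Interactions of Ccl7, Ccl2 and Ccl3, which recruit monocytes and other leukocytes, were 3.26, 2.10 and 1.76. The calls of Ccl5 and Ccl2 were each lost without 8 of the 16 libraries taken singly and those of Ccl7 and Ccl3 each without 10. The block at 1 week ended that of Ccl7 (adjusted p = 0.069), and single libraries moved the list's count between 2 and 7.

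Il1b, the inflammatory cytokine interleukin-1 beta, was a rise gained in NPC. It had 897, 771, 1007 and 560.5 normalized counts in NPC and 214, 199.5, 151 and 191 in WT libraries at 3 weeks. At 1 week Il1b had 183, 136, 166 and 178 in NPC and 251, 189, 157 and 275 in WT libraries. Il1b rose with age in NPC (2.26, log2), and the WT change was -0.18 and not called, so that the interaction was 2.44 ± 0.32 (adjusted p = 0.00493). It was 1 of 24 tested inflammatory cytokine and NF-kB genes called, with a list median of 0.27, and 0 of 26 immediate early and stress genes were called (median 0.09). Cd244, a SLAM-family receptor first known on natural killer cells, rose with age in NPC and had no called change in WT, with 150.1, 141, 221 and 279 normalized counts in NPC and 46.5, 35.8, 40.6 and 12.5 in WT libraries at 3 weeks. Counts at 1 week were 24.2, 15, 17 and 12.9 in NPC and 43.2, 27.6, 47.8 and 21.7 in WT libraries. Its interaction was 3.55 ± 0.63 (adjusted p = 0.0185), and 0.0501 without WT library C at 1 week. Mmp12, the macrophage elastase, had 493, 745, 1208 and 479 in NPC and 102, 159, 135 and 83.5 in WT libraries at 3 weeks. The libraries of 1 week had 41, 62.2, 93.3 and 88.8 in NPC and 47, 114, 81.1 and 101 in WT. The genotypes of Mmp12 overlapped at 1 week and were apart at 3 weeks, with an interaction of 2.79 ± 0.52 that was lost without 6 of the 16 libraries taken singly.

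Genes of cell division fell steeply in both genotypes, and many ended higher in NPC. All 34 tested members of the mitosis list fell with age in NPC (10.1% of all genes tested) and all 34 in WT (16.6%). Their median log2 changes were -4.23 and -5.15. At 3 weeks 18 were called higher in NPC than in WT (10.1% of all genes tested), and at 1 week 0. The interaction was called for 6 members, Ccnb1, Ube2c, Kif2c, Kif23, Aurka and Aurkb, all higher, with 32 of 34 above 0 and a median of 1.05 (13 called and a median of 1.11 without NPC library C at 3 weeks). Summed over the list, normalized counts ran from 3268 to 5381 in NPC and 1942 to 2241 in WT libraries at 3 weeks, and from 50914 to 56758 in NPC and 56336 to 65392 in WT libraries at 1 week. The ranges did not overlap at 3 weeks and overlapped slightly at 1 week, where NPC had the lower mean. NPC library C had the highest sum at 3 weeks (5381), but its genes were split. In it Top2a, Kif20a and Prc1 had 23.4, 13 and 42.9 normalized counts, below every WT library of that age. Ccnb2 had 551, above every other library of that age. Single libraries moved the number of called members between 3 (without WT library C at 1 week) and 13 (without NPC library C at 3 weeks), and the block at 1 week left 4.

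Ccnb1, cyclin B1, which drives entry into mitosis, had 93.9, 176, 142 and 108 normalized counts in NPC and 51.7, 36.7, 34.3 and 32.6 in WT libraries at 3 weeks. At 1 week Ccnb1 had 2021, 2131, 1909.5 and 2132 in NPC and 2456, 2581, 2317 and 2368 in WT libraries. The remnant at 3 weeks was higher in every NPC library although NPC was lower in every library at 1 week. Its interaction was 1.95 ± 0.28, a ratio of 3.85 (95% confidence interval 2.55 to 5.8; adjusted p = 0.00611). Ube2c, the ubiquitin-conjugating enzyme of the anaphase-promoting complex, had 48.6, 69.4, 144 and 53.4 in NPC and 15.5, 11.9, 18.7 and 13.4 in WT libraries at 3 weeks. At 1 week Ube2c had 1256, 1722, 1255 and 1505 in NPC and 1356, 1574, 1921 and 2361 in WT libraries. Library C was the high NPC library at 3 weeks, and the interaction was 2.52 with it and 2.18 without it. Kif2c, a kinesin that trims microtubules at centromeres, had 297, 333, 246 and 239.9 in NPC and 117, 104, 114 and 148 in WT libraries at 3 weeks. In the 1-week libraries the counts were 1569, 1941, 1547 and 1639.8 in NPC and 2348, 1949, 1863 and 1825 in WT libraries. Overlapping at 1 week and apart at 3 weeks, it had an interaction of 1.45 ± 0.23 (adjusted p = 0.0098). Kif23, a kinesin of the cytokinetic midzone, had an interaction of 2.41 ± 0.41 (adjusted p = 0.0137, and 0.0501 without WT library C at 1 week). For the mitotic kinases Aurka and Aurkb the interactions were 1.37 and 1.31, each lost without 12 of the 16 libraries taken singly and with the block at 1 week (adjusted p = 0.0667 for Aurka and 0.0975 for Aurkb). Of 34 tested genes of DNA replication, 11 were called higher in NPC than in WT at 3 weeks (10.1% of all genes tested) and 0 at 1 week. With age 33 fell in NPC (10.1% of all genes tested) and 34 in WT (16.6%). For the interaction 0 were called, 24 were above 0 and the median was 0.41. Their summed counts were 16692 to 22795 in NPC and 13504 to 14857 in WT libraries at 3 weeks, without overlap, as for mitosis. Whether both lists differ in their interaction was not tested.

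Promoters of 2 mitosis genes are shown because they hold the core of the cell cycle homology element, through which many genes of late cell cycle are repressed in resting cells. The letters searched were TTTGAA on both strands (reverse complement TTCAAA), in capitals, in the same windows on GRCm38.p6.
Ube2c promoter, chr2:164769679-164769978, plus strand: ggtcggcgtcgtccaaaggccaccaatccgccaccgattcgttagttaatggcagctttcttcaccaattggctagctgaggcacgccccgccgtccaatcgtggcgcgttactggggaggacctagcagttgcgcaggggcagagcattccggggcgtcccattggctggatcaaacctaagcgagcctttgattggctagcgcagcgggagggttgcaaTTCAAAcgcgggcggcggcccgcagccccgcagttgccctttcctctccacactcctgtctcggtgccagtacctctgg
Kif23 promoter, chr9:61946750-61947049, minus strand: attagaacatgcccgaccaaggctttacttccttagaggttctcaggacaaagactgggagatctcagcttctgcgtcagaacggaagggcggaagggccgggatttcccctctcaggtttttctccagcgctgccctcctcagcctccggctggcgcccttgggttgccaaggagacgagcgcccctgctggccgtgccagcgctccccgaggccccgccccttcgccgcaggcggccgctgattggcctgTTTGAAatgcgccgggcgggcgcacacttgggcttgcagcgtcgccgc
They were found in 22 of 29 tested mitosis members with a promoter in the table (75.9%) and in 3 of 28 DNA replication members (10.7%), against 5466 of 27025 genes (20.2%). Of the called mitosis members with a promoter 4 of 5 held them, and of the others 18 of 24 (75.0%), so the letters did not separate called from uncalled members. Ccnb1 had no match in its window.

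**Figure D3:**
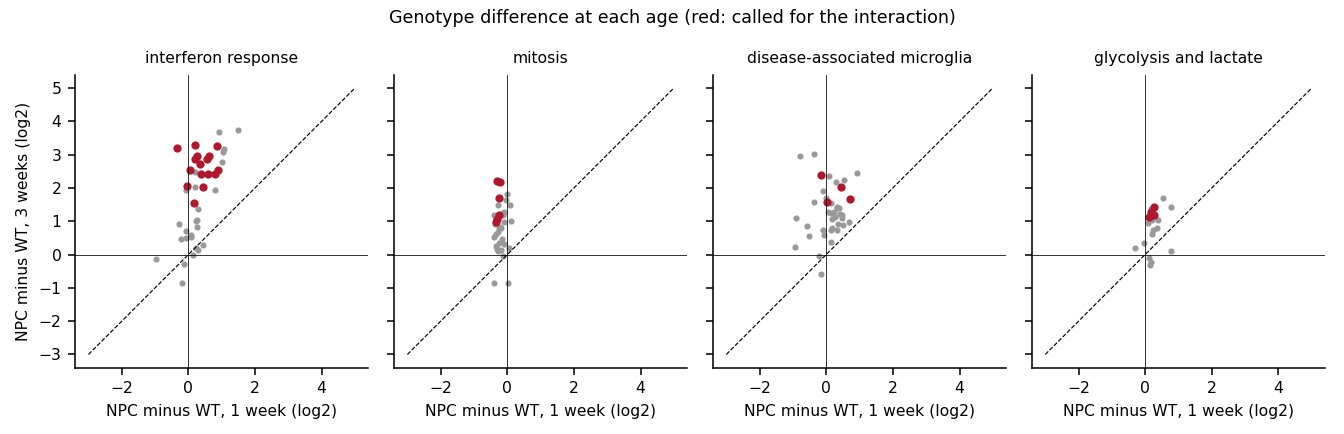
NPC minus WT at 3 weeks (vertical axis, log2) against NPC minus WT at 1 week (horizontal axis, log2) for tested members of 4 lists, with members called for the interaction in red and the line of equal difference dashed. Interferon members lie near 0 at 1 week and up to above 3 at 3 weeks, and mitosis members lie slightly below 0 at 1 week and mostly above 0 at 3 weeks.

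Genes of activated and of early postnatal microglia were mostly higher in NPC at 3 weeks. Over all genes tested, 10.1% were called higher in NPC than in WT at 3 weeks and 0.305% at 1 week. Of 40 tested disease-associated microglia genes, 33 were higher in NPC than in WT at 3 weeks and 2 at 1 week. For the interaction 4 were called higher (Cst7, Lgals3bp, Axl and Ctsb), 39 were above 0 and the median was 1.07. Of 30 tested genes of early postnatal and proliferative-region microglia, 25 were higher in NPC at 3 weeks and 1 at 1 week, 6 were called higher for the interaction (Cst7, Axl, Ctsb, Ccl3, Anxa5 and Pld3), 29 were above 0 and the median was 1.27. The lists share Cst7, Axl and Ctsb. Without NPC library C at 3 weeks the counts were 14 and 12, and single libraries moved them between 2 and 14 and between 1 and 12, the lowest without WT library C at 1 week in each list. The block at 1 week kept 3 of the 4 and 3 of the 6 calls, ending those of Ctsb, Anxa5 (adjusted p = 0.0513) and Pld3 (adjusted p = 0.07).

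Cst7, cystatin F, an inhibitor of lysosomal cysteine proteases, had 688, 1106, 1161 and 862 normalized counts in NPC and 119.9, 177, 225 and 210.1 in WT libraries at 3 weeks. At the earlier age the counts were 331, 292, 244 and 362 in NPC and 339.8, 247, 353 and 439 in WT. The genotypes were level at 1 week, after which Cst7 rose in NPC and fell in WT, with an interaction of 2.54 ± 0.34 (adjusted p = 0.00493). Hpse, heparanase, which cleaves heparan sulfate chains, had 1248, 2235, 2983 and 1445 in NPC and 100.3, 108, 60.3 and 89.2 in WT libraries at 3 weeks. At 1 week Hpse had 2104, 2322, 2642 and 3791 in NPC and 715, 1076, 1722 and 2644 in WT libraries. The NPC change of -0.51 (log2) was not called while WT fell steeply (-3.95), giving an interaction of 3.45 ± 0.50 (adjusted p = 0.00611). Sdc3, a heparan sulfate proteoglycan of the cell surface, had 4896, 6963, 4884 and 4428 in NPC and 1256, 1019, 1262 and 1278 in WT libraries at 3 weeks. At 1 week Sdc3 had 5091, 3566, 4455 and 4334 in NPC and 2433, 3131, 4317 and 2975 in WT libraries. Genotypes overlapped at 1 week, every NPC library was above every WT library at 3 weeks, and the interaction was 1.66 ± 0.25 (adjusted p = 0.00812). Axl, a receptor kinase that recognises apoptotic cells through bridging proteins, had 8484, 14976, 14836 and 8924 in NPC and 3550.0, 3888, 3868 and 4052 in WT libraries at 3 weeks. Counts at 1 week were 7804, 5807, 7054 and 8491 in NPC and 5605, 8055, 7852 and 7241 in WT libraries. Again the genotypes overlapped at 1 week and were apart at 3 weeks, and the interaction was 1.55 ± 0.27 (adjusted p = 0.0158, and 0.0501 without WT library C at 1 week).

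Among 54 tested lysosomal enzymes and membrane proteins, 4 were called higher (Hpse, Cst7, Dpp7 and Ctsb), 43 were above 0 and the median was 0.38. At 3 weeks 28 of the 54 were higher and 3 lower in NPC than in WT (10.1% and 7.88% of all genes tested). At 1 week 2 were higher and 1 lower. The interaction was called for 8 without NPC library C at 3 weeks, and for as few as 2 without any of 10 other libraries taken singly. Ctsb, the protease cathepsin B, was 1 of the few genes apart at both ages: it had 338307, 485307, 522388 and 434599 normalized counts in NPC and 120756, 140102, 152139 and 140379 in WT libraries at 3 weeks. The libraries of 1 week had 484658, 551840.0, 453049 and 511672 in NPC and 265141, 315585, 311187 and 325601 in WT. The NPC change was -0.18 (log2, not called) and WT fell (-1.14), for an interaction of 0.95 ± 0.19 (adjusted p = 0.0323). The block at 1 week ended this call (adjusted p = 0.0582), which was also lost without 12 of the 16 libraries taken singly. Dpp7, a lysosomal dipeptidyl peptidase, had an interaction of 0.99 ± 0.19, lost without 10 of 16. No V-ATPase subunit was called (0 of 17, median 0.49), nor any gene of cholesterol synthesis and uptake (0 of 27, median 0.26) or of LXR targets, lipoproteins and lipid droplets (0 of 25, median 0.61), although 3 of the last were called without NPC library C at 3 weeks. Of 23 phagocytosis genes, Axl and Msr1, a scavenger receptor for modified lipoproteins, were called (median 0.03). C2, the complement protease component, and Fcgr4, an IgG receptor, were called among 19 complement and Fc receptor genes (median 0.70), and the block at 1 week ended both calls (adjusted p = 0.0816 for Fcgr4). C2 had 583, 1178, 709.8 and 936 normalized counts in NPC and 10.3, 21.3, 43.7 and 40.3 in WT libraries at 3 weeks. At 1 week C2 had 1351, 752, 785 and 1298 in NPC and 146, 265, 374 and 759 in WT libraries. NPC and WT were far apart at 3 weeks, but the call on C2 was lost without 10 of the 16 libraries taken singly and with the block at 1 week (adjusted p = 0.0539).

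Glycolytic genes, which supply the energy of activated macrophages, were among the called genes as well. Of 20 tested glycolysis and lactate genes, 12 were higher in NPC than in WT at 3 weeks (10.1% of all genes tested) and 0 at 1 week. For the interaction 4 were called higher (Pkm, Tpi1, Gapdh and Aldoa), 16 were above 0 and the median was 0.66. Without NPC library C at 3 weeks 7 were called. Pkm, pyruvate kinase, had 22832, 27221, 32011 and 22957 normalized counts in NPC and 10252, 11320.3, 10983 and 10041 in WT libraries at 3 weeks. At 1 week Pkm had 22652, 24654, 21676 and 26025 in NPC and 18053, 21902, 20028 and 24559 in WT libraries. The NPC change was 0.13 (log2, not called), whereas WT fell (-0.98). The interaction was 1.12 ± 0.18 (adjusted p = 0.0117). Tpi1, Gapdh and Aldoa had interactions of 1.17, 0.99 and 0.93, and their calls were lost without 10, 12 and 14 of the 16 libraries taken singly; that of Aldoa was also lost with the block at 1 week (adjusted p = 0.0785). Subunits of oxidative phosphorylation and cytosolic ribosomal proteins had 0 called of 37 and 0 of 38, with medians of 0.66 and 0.90 that were 0.34 and 0.46 without NPC library C at 3 weeks, the library with the highest share of both groups of genes among the NPC libraries at 3 weeks. Because the deposited scaling sets the zero point, these small shared shifts are read beside the median over all genes, which was -0.03 as deposited and -0.13 after rescaling libraries to the same total.

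Beyond the lists, Gm8909 and Gm13710, known here by their gene-model symbols, were called in all 16 fits that left out 1 library. Gm13710 had 1184, 1171, 1660.1 and 1332 normalized counts in NPC and 378, 344, 404 and 359.7 in WT libraries at 3 weeks. In the 1-week libraries the counts were 1244, 1381, 1251 and 1451 in NPC and 813, 764, 883 and 882 in WT libraries. It was higher in every NPC library at both ages, and the interaction was 1.16 ± 0.19 (adjusted p = 0.0128). For Gm8909 the interaction was 1.80 ± 0.28 (adjusted p = 0.00885). Cd200r4, a CD200 receptor family gene, had 361, 389, 697 and 316 in NPC and 26.9, 13.6, 5.2 and 29.7 in WT libraries at 3 weeks. At the earlier age the counts were 176, 240.2, 123 and 201 in NPC and 40.8, 58.5, 113 and 99.9 in WT. Its interaction of 3.35 ± 0.67 was lost with the block at 1 week (adjusted p = 0.0767) and without 10 of the 16 libraries taken singly. On the list of MHC class I presentation, 18 genes were tested and only H2-K1 was called with all 16 libraries (median 0.65). H2-K1 has near-identical copies, so its counts are uncertain. H2-Q2, H2-K2 and H2-Q10, which are not on this list, were also called with all 16 libraries. Their interactions were 2.03, 1.70 and 1.92 (log2, adjusted p = 0.0191, 0.0292 and 0.0379). Whether reads are shared among these genes was not tested. Of 12 tested MHC class II genes 0 were called (median 0.53).

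**Figure D4:**
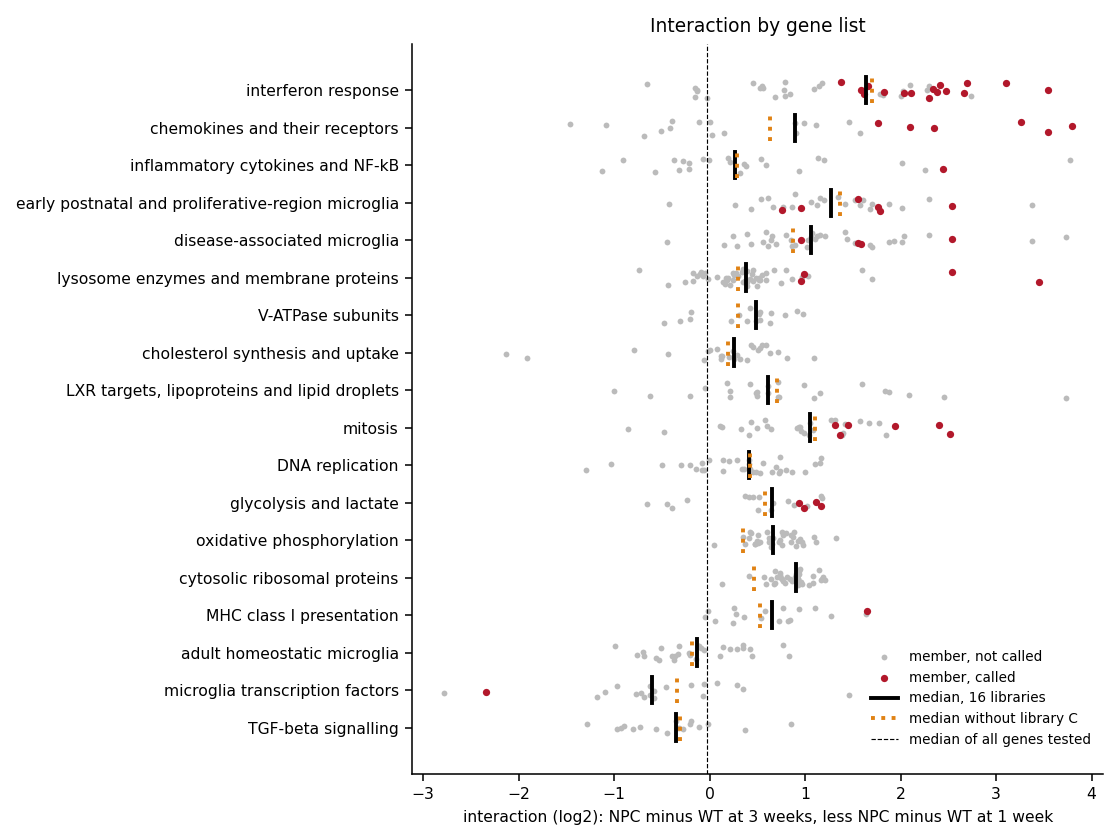
Interaction (log2) of each tested member of 18 gene lists, called members in red, with the list median over 16 libraries (black bar), the median without NPC library C at 3 weeks (dotted orange bar) and the median of all genes tested (dashed line, -0.03). Interferon members reach the highest list median (1.64). The medians of the transcription factor, TGF-beta signalling and adult homeostatic lists lie below the dashed line.

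In the opposite direction, 8 genes were called lower, and 6 of them rose with age in WT. Serpinf1, the secreted neurotrophic protein PEDF, was the firmest: it had 2068, 2104, 2059 and 1872 normalized counts in NPC and 14361, 16696, 9814 and 14224 in WT libraries at 3 weeks. At 1 week Serpinf1 had 1402, 1601, 1399 and 1018 in NPC and 4262, 3088, 3009.8 and 3425 in WT libraries. NPC was below WT in every library at both ages, the rise with age was 0.60 in NPC and 1.99 in WT (log2), and the interaction was -1.39 ± 0.24 (adjusted p = 0.0159, and 0.0501 without WT library C at 1 week). Mycl, a Myc-family transcription factor gene, had 1014, 1361, 1733 and 1846 in NPC and 3531, 7701, 5724 and 4499.9 in WT libraries at 3 weeks. At 1 week Mycl had 955, 821, 887 and 674 in NPC and 995, 1243, 1016 and 919 in WT libraries. The genotypes of Mycl overlapped at 1 week, and at 3 weeks every WT library was above every NPC library, with an interaction of -1.50 ± 0.32. Msl2, a subunit of a histone acetyltransferase complex, was the other blunted rise (-1.16 ± 0.23). Acvr2b, an activin receptor, Slc8a1, a sodium-calcium exchanger, and Vprbp, a substrate receptor of a ubiquitin ligase, rose in WT and had downward NPC changes that were not called, with interactions of -1.72, -1.01 and -1.36. The calls on Mycl, Msl2, Acvr2b, Slc8a1 and Vprbp were lost with the block at 1 week (adjusted p = 0.0968, 0.0707, 0.0968, 0.0832 and 0.0793) and without 12 to 14 of the 16 libraries taken singly.

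Klf2 and Igfbp4 were falls that went further in NPC. Klf2, a zinc finger factor that restrains inflammatory genes in macrophages, had 220.5, 100.3, 83.2 and 216 normalized counts in NPC and 555, 712, 797 and 432 in WT libraries at 3 weeks. Counts at 1 week were 1354, 1491, 1951 and 2946 in NPC and 1619.9, 1202, 1292 and 2328 in WT libraries. Levels overlapped at 1 week and were lower in every NPC library at 3 weeks, with log2 changes of -3.70 in NPC and -1.36 in WT and an interaction of -2.34 ± 0.48 (adjusted p = 0.0357). Igfbp4, a binding protein of insulin-like growth factors, had 488, 693, 664 and 566 in NPC and 2936, 2534, 2627 and 2216 in WT libraries at 3 weeks. The libraries of 1 week had 6951, 8256, 8738 and 6737 in NPC and 10792, 15259, 14248 and 18531 in WT libraries. It was lower in every NPC library at both ages, with an interaction of -1.18 ± 0.23 (adjusted p = 0.0323). The call on Klf2 was lost without 10 and that on Igfbp4 without 8 of the 16 libraries taken singly.

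Some homeostatic, microglia transcription factor and TGF-beta signalling genes were lower in NPC at 3 weeks. Of these 3 lists only Klf2, which fell with age in WT as well, was called for the interaction with all 16 libraries. NPC against WT at 3 weeks was called lower for 7 and higher for 2 of 30 tested homeostatic microglia genes, lower for 9 of 20 microglia transcription factors and lower for 4 of 18 TGF-beta signalling genes, against 7.88% lower over all genes. At 1 week 0 genes of these 3 lists were called. For the interaction none of the 30 homeostatic genes was called (10 above 0, median -0.14), with Tmem119 at -0.06 (95% confidence interval -0.65 to 0.54), P2ry12 at -0.15 (-0.61 to 0.32) and Cx3cr1 at -0.51 (-1.03 to 0.02). Of the 30, 14 rose with age in NPC (9.82% of all genes tested) and 19 in WT (13.1%). Tmem119 was also the sorting marker. Rhob, a small GTPase gene, had the smallest adjusted p of this list, at 0.119 with all libraries and 0.0495 without NPC library C at 3 weeks (interaction -0.99). Of 20 microglia transcription factors 1, Klf2, was called, 4 were above 0 and the median was -0.60 (-0.34 without NPC library C at 3 weeks); Runx1 had an interaction of -0.72 (adjusted p = 0.205) and Klf4 of -2.78 (adjusted p = 0.239). Of 18 TGF-beta signalling genes, a pathway that maintains adult microglia, 0 were called and 2 were above 0, with a median of -0.35. With age 4 of these 18 rose in NPC and 14 in WT, and 0 fell in NPC and 1 in WT. Of the 20 transcription factors 6 rose in NPC and 10 in WT, and 3 fell in NPC and 2 in WT. A p that misses the threshold leaves differences of the size of these intervals possible.

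Leaving out NPC library C at 3 weeks added 105 called genes, 76 higher and 29 lower, and 21 of the 105 also held when any other library was left out as well. The genes named here were chosen after their values were seen. Some differed in library C from the other NPC libraries at 3 weeks by direction as well as size. Apoe, the main apolipoprotein of the brain, had 826942, 1062140.0, 95857 and 959219 normalized counts in NPC libraries A to D and 264156, 318058, 373019 and 286031 in WT libraries at 3 weeks. At 1 week Apoe had 600600.0, 724275, 601204 and 671479 in NPC and 512938, 535560.0, 524282 and 733994 in WT libraries. Library C lay below every other library of the 4 groups, and the interaction was 1.43 ± 0.18 without it (adjusted p = 0.000758) and 0.61 with it (adjusted p = 0.666). Lyz2, lysozyme, had 33724, 40965, 8761 and 39387 in NPC and 7062, 9163, 7908 and 8726 in WT libraries at 3 weeks. At 1 week Lyz2 had 20626, 27191, 24939 and 32832 in NPC and 24234, 22297, 25733 and 32835 in WT libraries. For Lyz2, library C of NPC at 3 weeks was within the range of the WT libraries of that age. The interaction was 2.21 ± 0.20 without library C (adjusted p = 8.87e-06). For Cd63, a tetraspanin of late endosomes, library C was instead the high one, with 24827, 35080.0, 82235 and 33016 in NPC and 6394, 8598, 8967 and 9646 in WT libraries at 3 weeks. Npc2, the soluble partner of Npc1 in cholesterol export, had an interaction without library C of 0.82 (adjusted p = 0.00593).

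Without library C the mitosis list gained Ccnb2, Pbk, Birc5, Nuf2, Prc1, Top2a and Kif20a. Lag3, an inhibitory receptor gene, belonged to a class not seen among the 81, a rise that went further in NPC: it had 5637, 4924, 1596 and 7601 normalized counts in NPC and 3008, 3491, 3555 and 2519 in WT libraries at 3 weeks. In the 1-week libraries the counts were 1211, 1368, 1604 and 1566 in NPC and 1279, 1498, 1599.5 and 1757 in WT libraries. With library C, which lay within the range of the NPC libraries at 1 week, Lag3 was not called (adjusted p = 0.548); without it the interaction was 1.03 ± 0.21 (adjusted p = 0.0154). Of the 37 genes called lower without library C, 31 rose with age in WT and rose less or moved down in NPC. They included Nrip1, a nuclear receptor corepressor, with 6461, 5337, 881 and 5171 in NPC and 11313, 12397, 11259 and 8131 in WT libraries at 3 weeks, and Dusp6, a phosphatase of ERK, with 15387, 15110.2, 26704 and 13463 in NPC and 25654, 30897, 26399 and 22558 in WT libraries at 3 weeks. In Nrip1 library C was the lowest and in Dusp6 the highest of the NPC libraries at 3 weeks.

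**Figure D5:**
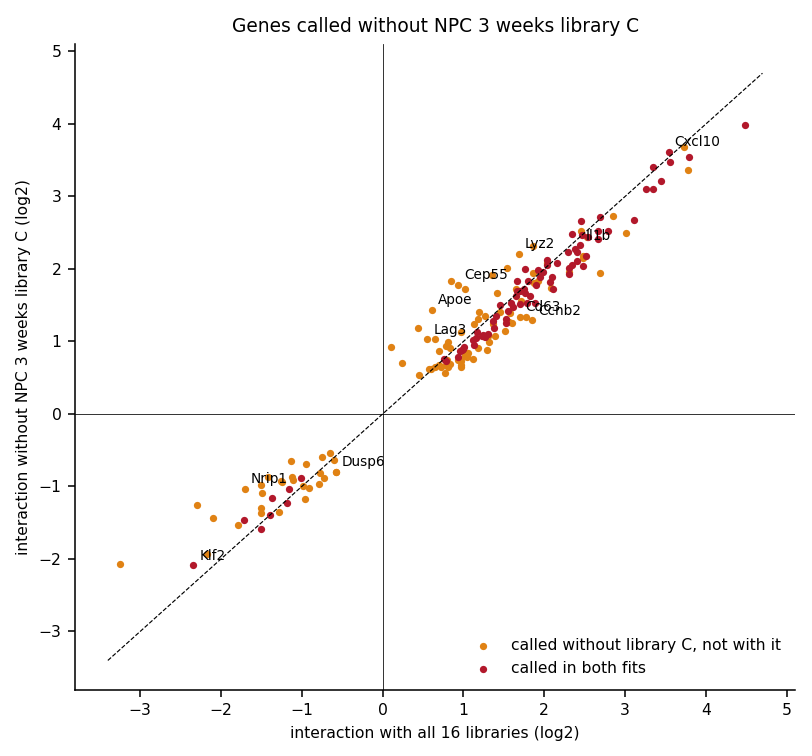
Interaction (log2) without NPC library C at 3 weeks (vertical axis) against the interaction with all 16 libraries (horizontal axis) for the 186 genes called without it, of which 81 were called in both fits (red) and 105 only without the library among these 2 fits (orange). All lie on the same side of 0 in both fits, and Apoe, Lyz2 and Lag3 lie above the dashed line of equality.

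Markers of other cell types gave 1 call for the interaction with all 16 libraries (Itm2a) and 2 without NPC library C at 3 weeks (Itm2a and Mrc1). At 3 weeks NPC was called above WT for 4 of 13 astrocyte and Bergmann glia markers and 4 of 11 border-associated macrophage markers. The share over all genes was 10.1%. Of 13 monocyte and neutrophil markers 2 were higher and 1 lower, and of 9 endothelial and pericyte markers 1 was higher and 1 lower. No other marker was called at 3 weeks, and none at 1 week. The source of these differences was not tested. Summed normalized counts of 13 tested oligodendrocyte and myelin markers ran from 6937 to 8846 in NPC and 6370 to 7596 in WT libraries at 3 weeks, and from 5489 to 9548 in NPC and 5393 to 12572 in WT libraries at 1 week; none was called and all 13 were above 0 (median 0.61). Sums of 13 astrocyte and Bergmann glia markers were 9570.1 to 11710 in NPC and 8530 to 11261 in WT libraries at 3 weeks, and 3163 to 4971 in NPC and 2829 to 4556 in WT libraries at 1 week, with 0 called. Those of 13 monocyte and neutrophil markers were 498 to 948 in NPC and 384 to 595 in WT libraries at 3 weeks, and 180.2 to 893 in NPC and 177 to 459 in WT libraries at 1 week, with 0 called and a median of 0.65, or 0.32 without NPC library C at 3 weeks; their part in the chemokine result was not tested. Border-associated macrophage markers summed to 9299 to 28253 in NPC and 16640.4 to 26617 in WT libraries at 3 weeks, and to 23911 to 37381 in NPC and 15735 to 32541 in WT libraries at 1 week, with 0 of 11 called and a median of 0.63. Without NPC library C at 3 weeks 1 was called and the median was 0.98, and DESeq2 on recovered reads of all 16 libraries called 3 (Ms4a7, Cbr2 and Mrc1). Mrc1, the mannose receptor, had 1000.2, 1135, 623 and 1207 normalized counts in NPC and 351, 353, 631 and 302 in WT libraries at 3 weeks. At 1 week Mrc1 had 6805, 7382, 7779 and 7809.8 in NPC and 3992, 8365, 8720.5 and 7976 in WT libraries. Its interaction was 1.40 ± 0.33 without library C (adjusted p = 0.0394) and 1.19 with it (adjusted p = 0.23). Of the 9 endothelial and pericyte markers tested Itm2a was called, at low counts of 31.9, 41.6, 159.9 and 48.2 in NPC and 2.07, 12.8, 3.12 and 5.76 in WT libraries at 3 weeks. At the earlier age the counts were 6.31, 8.58, 16 and 35.5 in NPC and 33.4, 17.7, 38.5 and 44 in WT. Library C was the highest for Itm2a, whose call was lost with the block at 1 week (adjusted p = 0.0571). None of 11 neuron, 3 lymphocyte and 1 erythrocyte marker passing the filter was called, and 6 of the 9 erythrocyte markers in the table, all hemoglobin genes, were listed at 0 in all 16 libraries.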

How the data were processed

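Poly(A) RNA of sorted microglia was turned into cDNA with the SMART-seq v4 kit, tagmented and read from both ends, per the labels' protocols. The authors deposited a signal on a linear scale, gene counts divided by a library's size factor; per the submitters' processing notes, FastQC 0.11.4, STAR 2.5.1b and DESeq2 were used with build mm9. The annotation, counting tool and strand setting are not given in the sources used here. All values (100%) of the 16 libraries were whole multiples of 1 step per library within a tolerance of 1e-06, which gave recovered whole reads for edgeR 4.0.16 and DESeq2 1.42.0 as alternatives. Reads carry no molecular identifiers, so depth bounds counting error only.

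The analysis used log2(value + 1) and limma 3.58.1 in R 4.3.3 (trend and robust options, 12 residual degrees of freedom, two-sided), on the 13428 of 24015 genes that reached 10 normalized counts in 3 or more of the 16 libraries. P-values were adjusted by the Benjamini-Hochberg method across these genes, and a gene with an adjusted p under 0.05 is said to be called. Fold changes are on the log2(value + 1) scale, which understates the change of low genes. The procedure was tested on simulated data.

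The members, the 30 gene lists and the rules were chosen with earlier results of these data known. Genes are named in part by rule: the 12 largest interactions in each direction called with and without NPC library C at 3 weeks and reaching a mean of 100, the 3 members of each list with the smallest adjusted p, up to 5 genes of each class, and 6 fixed genes. Rtp4, Oas1a, Kif23, Sdc3, Cd244, Gm8909, H2-Q2, H2-K2, H2-Q10, Ccl2, Ccl3, Aurka, Aurkb, Gapdh, Mrc1, Ms4a7 and Cbr2 were chosen after their values were seen. So were genes named only as called members of a list or as added calls without library C. Genes absent from the table under their list name: 3. Some single genes, 1 microglia marker among them, are not reported here. Promoters came from a RefSeq table of GRCm38.p6, which held 470 of 621 tested list genes. Columns not used: 0.

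Same-lettered NPC and WT libraries deviated together at 1 week (r 0.131 to 0.176, each library best with its own letter). At 3 weeks this held for A (r 0.152) and B (0.082) but not for C (-0.048) and D (-0.121). The pairing was taken from the data and is not stated in the labels. No 2 libraries were identical. Alternatives were the pseudocount, the filter, rescaling, normalization, array weights, replicate blocks, the libraries in the fit, edgeR, DESeq2 and leaving out each library; those added after seeing the data were the block at 1 week alone, the 31-library fit without library C, and leaving out each further library beside it.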

Additional observations from a re-analysis of the deposited data

Results flagged for a closer look

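The interaction is itself a test of whether the genotype difference changed with age, and it called 81 genes, described above. Within groups of 4 libraries, the gap of the most extreme library to its nearest neighbour, relative to the group's range, passed Dixon's 95% critical value in 8 of 220 pairs of named gene and group, where chance gives about 5%. Itgam, the CD11b gene used for sorting, had 18335 normalized counts in NPC library C at 3 weeks, against 47246 to 50372 in the other NPC libraries of that age. Npc1 had 310.7 in NPC library D at 1 week, against 490 to 523 in its group, and 5735 in WT library D at 3 weeks, against 6897 to 7030.4. Ifitm3 had 118 in WT library A at 3 weeks, against 177 to 189, and Sdc3 had 1019 in WT library B at 3 weeks, against 1256 to 1278. At 1 week Aurka had 1461 in WT library C, against 1643 to 1661, Msr1 had 161 in WT library A, against 333 to 382, and Csf1r had 363896 in WT library D, against 447923 to 463674. In all 8 the extreme library was the lowest of its group.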

How the results depend on the processing

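Of the 81 called genes (73 higher, 8 lower), 66 to 81 stayed called under either pseudocount, the stricter filter, rescaling, TMM or quantile normalization, and 63 without a filter, with totals of 70 to 91. On recovered reads edgeR called 94 genes, 75 of them shared, and DESeq2 called 313 (255 higher, 58 lower), all 81 shared. Array weights, which gave NPC library C at 3 weeks a weight of 0.0629, called 487 (296 higher, 191 lower), and the fit of all 31 untreated libraries 149 (121 higher, 28 lower), or 122 without library C (25 lower). Leaving out both libraries lettered C at 3 weeks gave 165 (141 higher, 24 lower). With the replicate block by letter at 1 week alone the count was 44 (41 higher, 3 lower), and with the replicate block at both ages 60 (4 lower). Leaving out 1 library gave 19 to 186 genes (19 to 149 higher, 0 to 37 lower), and leaving out 1 more beside NPC library C at 3 weeks gave 103 to 214 (80 to 169 higher, 14 to 58 lower), of which 68 to 81 were among the 81. The causes of these moves were not tested. Of the 55 genes recomputed under every alternative, 0 changed direction past the threshold; other named genes were not recomputed under all of them. An interaction that missed the threshold is not shown to be absent.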
